A study of Mus musculus with 12 samples.

Results

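Tmed6, Akr1c19, Ambp, Sult1d1, Cpn1, Scgn, Enpep and Golt1a are 8 genes outside the usual lists of islet hormones and islet transcription factors. They were selected on their measured microarray signals, high in pancreatic tumors and low in head tumors of mice that overexpress MYCN. The 8 genes carry 10 probe sets, out of 18193 genes and 45037 probe sets that were measured. Since the difference between the sites chose the genes, it is given for them as a description with no test. The tests below concern how the genes vary among the pancreatic tumors, which the choice did not use, and their families, partners and neighbors on the chromosome. Families, partners and neighbors were tested between the same sites on the same arrays. Their results are therefore not independent of the choice.

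RNA from 9 pancreatic and 3 pituitary tumors, numbered 1 to 12, was hybridized to Affymetrix mouse oligonucleotide arrays, with 1 array per tumor. All tumors arose in untreated LSL-MYCN;hGFAP-Cre mice on a mixed genetic background. In these mice a floxed stop in front of MYCN and luciferase is removed by a Cre recombinase that the human GFAP promoter drives, so that the transgene is on in cells with a history of GFAP promoter activity and in their progeny. Ages of the single tumors are not given in the sources used here. Tumors 6, 7 and 8 are labelled as brain tumors. Head tumors of this model sit at the pituitary gland according to the paper. The mean over 10 markers of the anterior pituitary ran from 9.42 to 11.37 on the log2 scale in these 3 tumors, against 4.93 to 5.45 at the pancreatic site, and 9 of the 10 markers passed the test as higher in the head tumors. The head tumors also held transcripts of glia and neurons, with a mean over 9 markers of 10.28, 6.43 and 10.29 in tumors 6, 7 and 8. Some mice had tumors at both sites, and which tumors share a mouse is not given, so all tumors were treated as independent. Normal pancreas and neuroblastoma, to which the study also compared, were not analysed here.

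The pancreatic tumors expressed several islet hormones, among them glucagon and somatostatin, hormones of alpha and delta cells of the pancreatic islet. Mean signals of Sst, Iapp, Ppy, Ins2 and Ghrl were 14.86, 14.43, 11.58, 10.97 and 4.85 in the pancreatic tumors. In the pituitary tumors they were 11.45, 12.07, 6.59, 5.90 and 4.34. The alpha cell markers Irx1 and Irx2 differed between sites by 0.18 and 1.08 and did not pass the test. Gcg averaged 12.38 ± 1.68 (SD, n = 9) at the pancreatic site and 5.85 ± 0.52 (SD, n = 3) at the pituitary site. Signals are log2 values as deposited by the authors, and the median probe set of an array, which serves here as the level of background, was 5.45 to 5.69. In bulk tumors, fewer cells of a type and less RNA per cell cannot be told apart. Pancreatic tumor 2 differed in composition from the others. Its mean over 5 neuroendocrine markers was 9.33, against 12.29 to 13.27 in the other 8 pancreatic tumors, and its mean over 9 hepatocyte markers was 13.81. Pancreatic tumors 3 and 4 also carried hepatocyte transcripts (10.75 and 11.11) as well as acinar transcripts (12.90 and 12.02 over 8 markers). Acinar means were 9.89, 8.13, 7.91 and 7.51 in tumors 10, 11, 12 and 5, and Alb was 12.28 and 11.01 in tumors 11 and 12. Differences of the 8 genes between sites and correlations that passed are also given without tumors 2, 3 and 4. For related and neighboring genes that passed, the range of the change is given. Leaving out these 3 tumors does not remove all transcripts of hepatocytes and acinar cells. Arrays of pancreatic tumors 10, 11 and 12 had a slightly lower mean over all probe sets (5.97 to 5.98) than the others (6.06 to 6.10).

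The 8 proteins serve secretion, the blood plasma and the handling of small molecules. Tmed6 belongs to the p24 family, whose members cycle between the endoplasmic reticulum and the Golgi apparatus and help to select cargo, and Golt1a is named for transport to the Golgi. Scgn encodes secretagogin, an EF-hand calcium sensor of islet and other neuroendocrine cells. Ambp encodes a precursor that is split into alpha-1-microglobulin, a lipocalin, and bikunin, a protease inhibitor, and the liver is its main known source. Cpn1 is the catalytic subunit of carboxypeptidase N, a plasma enzyme made by the liver that removes C-terminal arginine and lysine from peptides such as bradykinin. Enpep is aminopeptidase A, a membrane enzyme that shortens angiotensin II. Akr1c19 is an aldo-keto reductase, and Sult1d1 is a cytosolic sulfotransferase that acts on catecholamines and other phenols.

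The sequence in front of the genes was inspected for short motifs of factors that are known from liver and pancreas. Each window ran from 250 bases before to 50 bases after the RefSeq start of the gene (GRCm38.p6), and both strands were searched. GTTAAT, the core of many HNF1 sites, occurred in 4 of the 8 windows and in 7.1% of all 32851 promoter windows of the table. It lay at -52 in Tmed6, -79 in Sult1d1, -52 in Cpn1 and -62 in Golt1a, on the strand of the gene in all 4. TGTTTAC, a FOXA motif, occurred in 2 windows and in 3.65% of all. It lay at -65 in Cpn1 on the strand of the gene, and at 33 bases after the start in Sult1d1, where the gene strand reads GTAAACA. The letters CAAAGTC (HNF4) and CACGTG (E-box) occurred in 0 of the 8 windows, against 4.44% and 7.15% of all. The 250 bases upstream of the 4 genes with GTTAAT are shown because these genes share the letters close to the same distance from the start, although they lie on different chromosomes. Capitals mark GTTAAT and, in Cpn1, TGTTTAC.
Tmed6, chr8:107065645-107065894, minus strand: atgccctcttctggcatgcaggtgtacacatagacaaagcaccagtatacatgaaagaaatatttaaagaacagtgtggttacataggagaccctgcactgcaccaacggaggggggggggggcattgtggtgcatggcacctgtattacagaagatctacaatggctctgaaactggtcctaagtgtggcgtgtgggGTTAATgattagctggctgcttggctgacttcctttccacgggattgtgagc
Sult1d1, chr5:87569007-87569256, minus strand: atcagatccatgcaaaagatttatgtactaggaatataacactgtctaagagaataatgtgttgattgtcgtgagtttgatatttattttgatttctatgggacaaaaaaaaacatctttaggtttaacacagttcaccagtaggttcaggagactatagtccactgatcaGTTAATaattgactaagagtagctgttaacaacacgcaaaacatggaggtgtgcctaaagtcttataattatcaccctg
Cpn1, chr19:43986521-43986770, minus strand: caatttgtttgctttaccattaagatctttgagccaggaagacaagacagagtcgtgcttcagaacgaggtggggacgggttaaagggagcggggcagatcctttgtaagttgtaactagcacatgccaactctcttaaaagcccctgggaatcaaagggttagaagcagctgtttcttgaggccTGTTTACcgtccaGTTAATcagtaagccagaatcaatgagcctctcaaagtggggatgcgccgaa
Golt1a, chr1:133309573-133309822, plus strand: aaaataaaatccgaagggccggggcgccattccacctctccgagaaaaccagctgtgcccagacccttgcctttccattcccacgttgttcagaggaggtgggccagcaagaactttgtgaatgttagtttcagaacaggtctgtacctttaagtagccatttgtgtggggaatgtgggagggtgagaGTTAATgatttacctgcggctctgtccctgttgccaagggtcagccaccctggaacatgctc
The GC content of these stretches was 49.6% in Tmed6, 34.0% in Sult1d1, 47.6% in Cpn1 and 52.0% in Golt1a, beside a median of 52.4% over all promoters of the table. A GC-poor stretch holds letters such as GTTAAT more often. The other 4 genes lay between 40.8% (Akr1c19) and 54.4% (Ambp). A match of letters is a description of the sequence, and binding was not measured.

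All 8 genes were higher in every pancreatic tumor than in every pituitary tumor, as their choice required. Of all 18193 genes, 4.15% separated the sites in this direction. The pancreatic signals of Tmed6 ran from 8.32 in tumor 2 over a median of 12.00 to 12.82 in tumor 11. In the pituitary tumors 6, 7 and 8 its signals were 3.97, 3.31 and 4.31. These 3 values lie below the median of their arrays, so that the fold is a bound, and Tmed6 was at least 65.4-fold higher in the pancreatic tumors (means 11.61 ± 1.37, SD, n = 9, and 3.86 ± 0.51, SD, n = 3). Bounds of this kind set the pancreatic mean against the higher of the array median and the measured signal in each pituitary tumor. Golt1a, the other gene of Golgi transport, ran from 7.79 in tumor 5 over a median of 8.64 to 9.48 in tumor 2. Its pituitary signals of 4.93, 5.17 and 4.60 were below the array medians, and it was at least 8.33-fold higher in the pancreatic tumors. The pancreatic tumors lay close together for Golt1a, with an SD of 0.53 against 1.37 for Tmed6.

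Scgn had signals from 7.40 in tumor 2 over a median of 10.76 to 11.44 in tumor 11. In the pituitary tumors it measured 5.78, 6.06 and 5.24, and tumor 8 alone was at or below its array median. The gap of Scgn between the sites was 1.34, between pancreatic tumor 2 and pituitary tumor 7. Without pancreatic tumors 2, 3 and 4 the lowest Scgn signal was 9.54.

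The 2 genes of plasma proteins behaved differently from each other among the pancreatic tumors. Ambp ranged from 10.26 in tumor 9 over a median of 12.13 to 14.52 in tumor 2. Its pituitary signals were 5.85, 5.30 and 5.65, close to the level of background. The mean difference of Ambp was 6.38 (11.98 ± 1.28, SD, n = 9, and 5.60 ± 0.27, SD, n = 3). Cpn1 was the most even of the 8 genes in the pancreatic tumors, from 10.27 in tumor 11 over a median of 11.03 to 11.34 in tumor 2. With 5.42, 4.72 and 5.21 in the pituitary tumors, all below their array medians, it was at least 42.7-fold higher in the pancreatic tumors by this probe set. The gap of this probe set between the lowest pancreatic and the highest pituitary tumor was 4.85. By the further probe set of Cpn1, described below, the bound was only 1.18-fold.

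Among the enzymes of small molecules and peptides, Akr1c19 ran from 8.05 in tumor 5 over a median of 10.22 to 10.89 in tumor 2. The pituitary signals of 3.54, 3.46 and 3.27 lay below the array medians. Akr1c19 was at least 20.5-fold higher in the pancreatic tumors. The Akr1c genes are close copies of each other, so a probe set can read more than 1 of them, and this holds for the Sult genes as well. Sult1d1 had the widest range, from 6.05 in tumor 11 over a median of 9.30 to 12.01 in tumor 2, with 3.74, 3.08 and 3.24 in the pituitary tumors. The bound for Sult1d1 was at least 12.9-fold by this probe set and at least 5.28-fold by its further probe set. Enpep ran from 10.05 in tumor 2 over a median of 10.74 to 12.56 in tumor 1. Its pituitary signals of 6.92, 6.89 and 6.37 were above all 3 array medians, and thus Enpep is the gene of the 8 for which signal above background was seen at both sites in all tumors. The mean difference of Enpep was 4.46 (11.18 ± 0.88, SD, n = 9, and 6.73 ± 0.31, SD, n = 3).

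**Figure D1:**
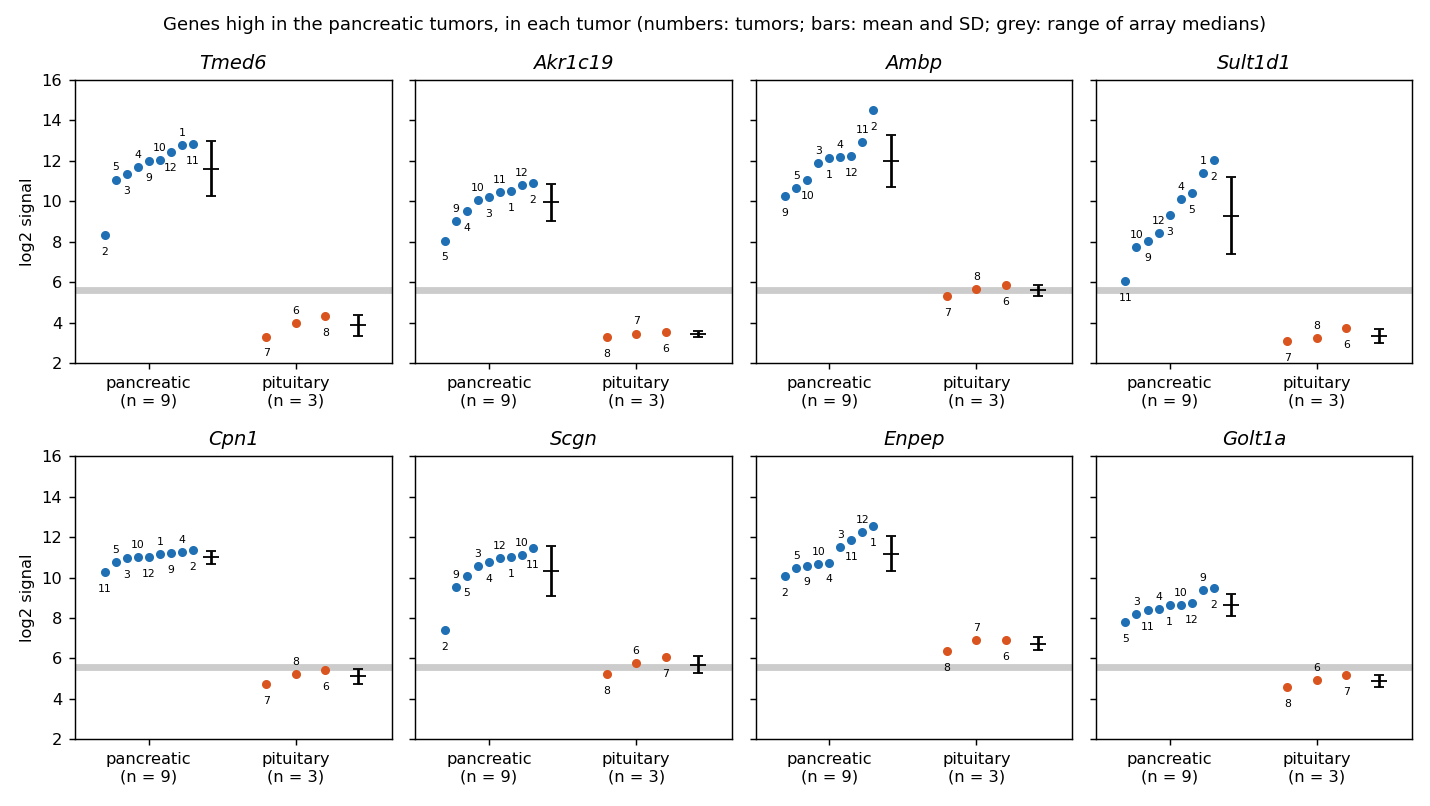
Log2 signal of the 8 genes in each of the 9 pancreatic and 3 pituitary tumors, with 1 point per tumor and its number, ordered by signal within a site. Bars give the mean and SD and the grey band the range of the array medians, 5.45 to 5.69; every pancreatic point lies above every pituitary point, with a gap of 1.34 for Scgn and of 4.85 for Cpn1.

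Sult1d1 and Cpn1 were each read by a further probe set, which offers a check on the spread among tumors. For Sult1d1 the further probe set also fell lowest in tumor 11 (4.40, below the array median of 5.45) and highest in tumor 2 (10.86), with a median of 7.87. Across the 9 pancreatic tumors the Sult1d1 probe sets had Pearson's r = 0.988 (exact permutation p = 5.51e-06, adjusted over the 2 pairs of probe sets p = 1.1e-05; Spearman's rho = 0.983, exact permutation p = 4.96e-05). Without the 2 tumors farthest from the median, r was 0.976. The probe sets of Sult1d1 therefore ordered the tumors almost alike. For Cpn1 they did not. The further Cpn1 probe set was dim, from 4.46 in tumor 10 over a median of 5.71 to 7.95 in tumor 5, and in 4 of the 9 pancreatic tumors it lay at or below the array median. Its pituitary signals were 4.11, 4.57 and 4.47, so that 8 of the 9 pancreatic tumors lay above them and the sites overlapped. The Cpn1 probe sets had r = 0.0235 (exact permutation p = 0.951, adjusted p = 0.951; rho = 0.0167, exact permutation p = 0.982), and r = -0.469 without the 2 farthest tumors. The mean of both probe sets lowered the difference of Cpn1 from 5.88 to 3.66 and that of Sult1d1 from 5.92 to 5.16.

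The order of the pancreatic tumors changed from gene to gene. Sult1d1 had an SD of 1.91 among the 9 pancreatic tumors, which is at percentile 98.2 of all genes, and Tmed6, Ambp and Scgn were at percentiles 95.3, 94.1 and 93.4. Cpn1 was at percentile 35.6 (SD 0.32), below the median SD of all genes of 0.43. Tumor 2 stood at an end of the order for all 8 genes. It had the highest signal of the 9 for Akr1c19, Ambp, Sult1d1, Cpn1 and Golt1a and the lowest for Tmed6, Scgn and Enpep. Relative to the mean of the 9 tumors, tumor 2 differed by -3.29 for Tmed6 and by 2.74 for Sult1d1. Tumor 11 was the highest for Tmed6 and Scgn and the lowest for Sult1d1 and Cpn1, and its Sult1d1 signal was 3.22 below the mean. Tumor 1 lay at or above the mean for all 8 genes, tumor 12 for 7 of them and tumor 5 for 1, which is Sult1d1.

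**Figure D2:**
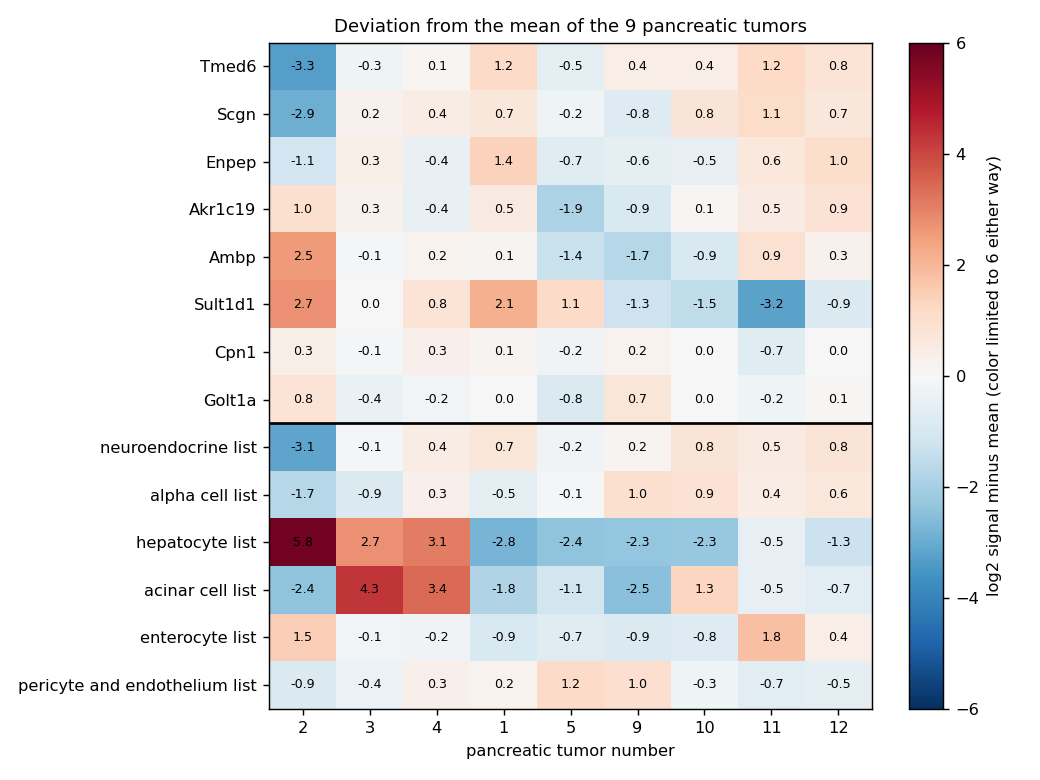
Deviation of each of the 8 genes (rows above the line) and of 6 marker lists (rows below it) from its mean over the 9 pancreatic tumors (columns), in log2 signal, with red for above and blue for below the mean. Tumors 2, 3 and 4, in which all 9 hepatocyte markers were above the array median, stand at the left; tumor 2 is low for Tmed6, Scgn and the neuroendocrine list and high for Ambp, Sult1d1 and the hepatocyte list.

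The plasma protein genes were measured beside transcripts that define hepatocytes, since the liver is a known source of both and the study describes liver involvement in some animals. Of the 9 hepatocyte markers, 0 passed the limma test between sites, and 3 had an unadjusted p below 0.05, all higher in the pancreatic tumors. Their mean ran from 5.22 to 13.81 at the pancreatic and from 4.51 to 5.27 at the pituitary site. In tumors 1, 5, 9 and 10, between 4 and 6 of the 9 markers were at or below the array median. Fga (fibrinogen), Cps1 (a urea cycle enzyme) and Ahsg (a plasma glycoprotein) lay below the array median in all 4, at 3.19 to 3.46, 4.00 to 4.29 and 4.79 to 5.32. Alb (albumin), Apob (an apolipoprotein) and Tat (an enzyme of tyrosine breakdown) lay above it in all 4, at 6.22 to 8.78, 6.50 to 8.72 and 6.15 to 7.03. The other 3 markers differed among the 4 tumors, with Fgb from 4.41 to 8.60, Apoa1 from 5.10 to 5.50 and Cyp2e1 from 4.75 to 6.95. In the same 4 tumors, Ambp measured 12.13, 10.63, 10.26 and 11.07, and Cpn1 measured 11.14, 10.78, 11.19 and 11.01. Some hepatocyte markers were thus at background and others above it in these tumors, and the part of hepatocytes in the signals of Ambp and Cpn1 was not tested. Ambp reached 14.52 in tumor 2, where all 9 markers were above the array median and Alb measured 15.01. In tumors 3 and 4, with hepatocyte means of 10.75 and 11.11, Ambp was 11.88 and 12.20, within the range of the other 6 pancreatic tumors (10.26 to 12.92). The upper end of that range was tumor 11, with a hepatocyte mean of 7.54 and Alb at 12.28. In tumor 12 Ambp was 12.24, with Alb at 11.01. Tumors 11 and 12 are therefore not free of hepatocyte transcripts, and tumors 1, 5, 9 and 10 had the mixed marker signals given above. Cpn2, which encodes the regulatory subunit of carboxypeptidase N, was 10.17 in tumor 2, 5.95 in tumor 3 and 6.16 in tumor 4, and 3.59 to 4.44 in the other 6 pancreatic tumors. It was thus at background in the 6 tumors in which Cpn1 measured 10.27 to 11.19.

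**Figure D3:**
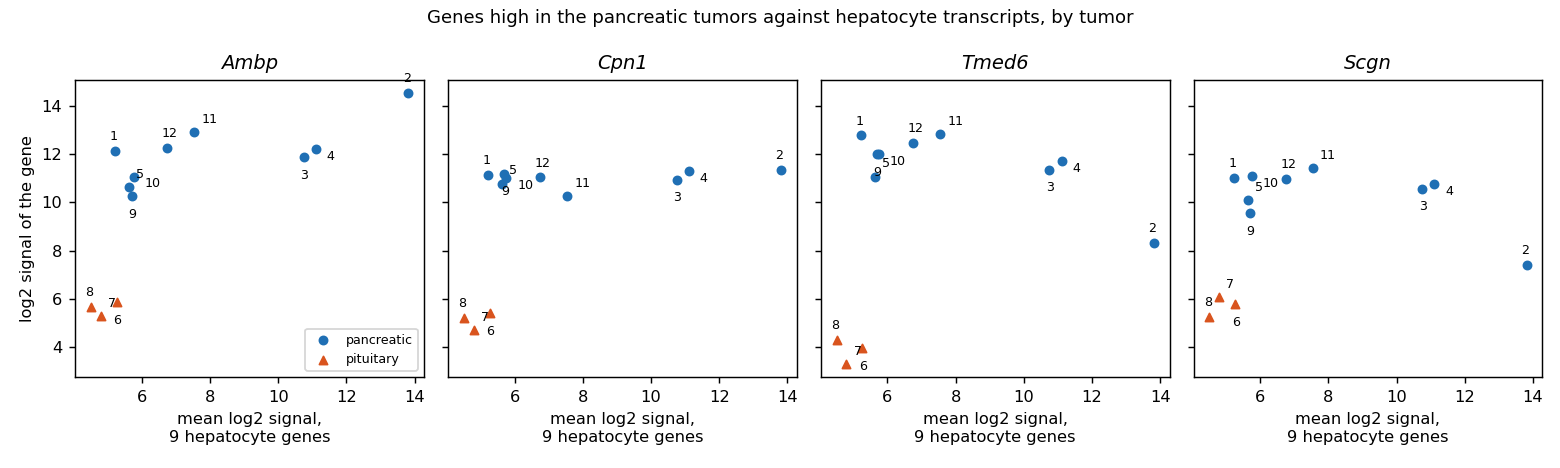
Log2 signal of Ambp, Cpn1, Tmed6 and Scgn (vertical) against the mean log2 signal of 9 hepatocyte markers (horizontal) in the 9 pancreatic (circles) and 3 pituitary tumors (triangles), with the tumor number beside each point. Ambp and Cpn1 are above 10 in pancreatic tumors at both ends of the horizontal axis, and tumor 2 (13.81 on this axis) has the lowest pancreatic signals of Tmed6 (8.32) and Scgn (7.40).

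Other tissues that express these genes were followed by their markers too. Enpep and Sult1d1 are known from kidney and gut, and 6 markers of the kidney proximal tubule averaged 4.68 to 5.04 per pancreatic tumor and 4.51 to 4.89 per pituitary tumor, with 5 of 6 at or below the array median in each pancreatic tumor. The marker above it was Slc5a2, a glucose transporter, with 5.75 to 6.87 in the 9 pancreatic tumors. Slc34a1, a phosphate transporter, passed limma as higher in the pancreatic tumors (difference 0.56, adjusted p = 0.0358) with signals below the array medians at both sites (4.68 to 5.23 and 4.16 to 4.52). The mean over 5 enterocyte markers was 7.72 in tumor 11 and 7.36 in tumor 2 and 4.98 to 6.29 in the other 7 pancreatic tumors. In tumor 11, 0 of the 5 markers were at or below the array median. In tumor 2 the mean came from Apoa4 and Fabp2 (11.24 and 10.37). Vil1, Lct and Alpi measured 5.23, 4.27 and 5.68 there. Sult1d1 was lowest in tumor 11 and highest in tumor 2. Enpep is also carried by pericytes. The mean over 6 markers of pericytes and endothelium was 6.76 in tumor 2 to 8.78 in tumor 5 and 7.15 to 7.43 in the pituitary tumors. Enpep was 10.05 in tumor 2, its lowest pancreatic signal, and 10.46 in tumor 5. In tumor 1, where Enpep was highest (12.56), the mean over these markers was 7.82. The part of these cells in the signals was not tested. Without tumors 2, 3 and 4, the differences between sites were 8.32 for Tmed6, 6.38 for Akr1c19, 5.94 for Ambp, 5.32 for Sult1d1, 5.78 for Cpn1, 5.00 for Scgn, 4.66 for Enpep and 3.70 for Golt1a.

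Pairs of the 8 genes were correlated across the 9 pancreatic tumors to ask whether the genes vary together. Of 28 pairs, 0 passed an exact permutation test of Pearson's r after Benjamini-Hochberg adjustment, and 5 had an unadjusted p below 0.05. Tmed6 and Scgn had r = 0.919 (exact permutation p = 0.00671, adjusted p = 0.188; rho = 0.85, exact permutation p = 0.00607). Without the 2 tumors farthest from the median of Tmed6, r was 0.49, and without tumor 2 it was 0.599. The size of r thus depends in part on those tumors. Tmed6 and Enpep had r = 0.708 (exact permutation p = 0.0152, adjusted p = 0.205; rho = 0.8, exact permutation p = 0.0138), and r = 0.631 without the 2 farthest tumors. Akr1c19 and Ambp had r = 0.744 (exact permutation p = 0.0234, adjusted p = 0.205; rho = 0.817, exact permutation p = 0.0108), and r = 0.557 without the 2 farthest tumors. Scgn and Enpep had r = 0.672 and Sult1d1 and Cpn1 r = 0.669 (adjusted exact permutation p = 0.205 and 0.238). Leaving out tumor 2 turned the sign of some pairs. Tmed6 and Akr1c19 had r = -0.0575 over the 9 tumors and 0.721 without tumor 2, and Ambp and Scgn had -0.4 and 0.837 (adjusted exact permutation p = 0.222 and 0.161 without tumor 2). Without tumor 1, 1 of the 28 pairs passed, with a negative r (adjusted exact permutation p = 0.0361). Without tumor 9, 1 pair passed, with a positive r (adjusted exact permutation p = 0.00556).

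Each gene was also set against the islet hormones Gcg, Sst, Ins2, Ppy and Iapp, which gave 40 relations. Of these, 2 passed the adjusted exact permutation test and 7 had an unadjusted p below 0.05. The count of 2 fell to 0 without tumor 2 or without tumor 4, was 1 without tumor 5, 10, 11 or 12, and was 3 without tumor 9. Scgn rose with Sst across the 9 pancreatic tumors (r = 0.946, exact permutation p = 0.000435, adjusted p = 0.0174; rho = 0.967, exact permutation p = 0.000165). Sst measured 13.65 in tumor 2 and 14.87 to 15.10 in the other 8 tumors, a narrow span at high signal. Without tumors 2 and 9, the farthest from the median of Scgn, r was 0.802 (exact permutation p = 0.025). Without tumor 2 it was 0.878 and the adjusted exact permutation p was 0.157, without tumor 4 it was 0.945 (adjusted exact permutation p = 0.0506), and with quantile normalization it was 0.909 (adjusted exact permutation p = 0.206). Without tumors 2, 3 and 4 it was 0.967 (exact permutation p = 0.00972), and without tumors 10, 11 and 12 it was 0.957 (exact permutation p = 0.00694). Tumor 2 was the lowest of the 9 tumors in both genes, and the order of the other tumors in Scgn was close to their order in Sst.

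Ambp fell as Iapp, the amyloid peptide of islets, rose (r = -0.872, exact permutation p = 0.00149, adjusted p = 0.0298; rho = -0.833, exact permutation p = 0.00827). Iapp was lowest in tumor 2 (13.71) and highest in tumor 10 (14.75). Without tumors 2 and 9, r was -0.703 (exact permutation p = 0.0722), without tumor 2 it was -0.7 (adjusted exact permutation p = 0.524), without tumors 2, 3 and 4 it was -0.797 (exact permutation p = 0.0181), and without tumors 10, 11 and 12 it was -0.875 (exact permutation p = 0.0236). The relation of Ambp and Iapp thus rests in part on tumors 2 and 9. It did not pass with quantile normalization (r = -0.848, adjusted exact permutation p = 0.112), median centring (-0.813, 0.116), the mean of all probe sets (-0.788, 0.209) or Spearman's rank correlation (-0.833, 0.165). Leaving out tumor 4, 5, 10, 11 or 12 also ended the call (adjusted exact permutation p = 0.0605, 0.0828, 0.0556, 0.107 and 0.057). Tmed6 had r = 0.936 with Sst (exact permutation p = 0.00568, adjusted p = 0.0757; rho = 0.783, exact permutation p = 0.0172) and r = 0.592 without the 2 farthest tumors. Tmed6 and Gcg had r = 0.789 (exact permutation p = 0.0261, adjusted p = 0.209; rho = 0.467, exact permutation p = 0.213) and r = 0.301 without tumor 2.

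**Figure D4:**
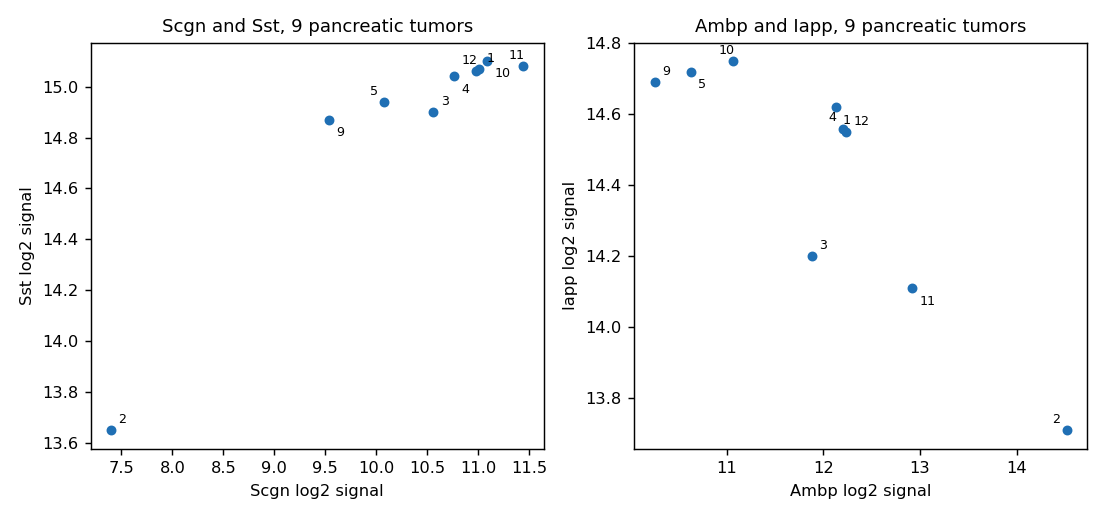
Log2 signals of Sst against Scgn (left) and of Iapp against Ambp (right) in the 9 pancreatic tumors, with 1 point per tumor and its number. Tumor 2 lies apart in both plots, at 7.40 for Scgn with 13.65 for Sst and at 14.52 for Ambp with 13.71 for Iapp.

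The genes whose pattern over the 9 pancreatic tumors was most alike were sought among 9097 genes with a spread at or above the median, and r is given as a description. For 7 of the 8 genes this comparison was made, and Cpn1 was left out because it varied too little. Nearest to Ambp were Eppk1 (r = 0.976), Cyp4v3 (0.966) and Arg1 (0.958). Arg1 encodes the arginase of the urea cycle and ranged from 9.46 to 13.50, beside 5.25 to 5.39 in the pituitary tumors. Over the 6 tumors other than 2, 3 and 4, r of Ambp was 0.962 with Eppk1, 0.959 with Cyp4v3 and 0.91 with Arg1. These genes were picked for the highest r of 9097 over tumors that include the same 6. Their r over the 6 is therefore not independent of the choice. Nearest to Tmed6 were Rtl6 (0.991), Cep170b (0.985) and Fam229b (0.981), and nearest to Scgn were Setd5 (0.975), Zc3h7b (0.971) and the sodium channel gene Scn8a (0.97). Scn8a ranged from 4.31 to 7.76 at the pancreatic site and from 7.12 to 9.77 at the pituitary site, so a gene that follows Scgn within the pancreatic tumors need not share its difference between sites. Nearest to Sult1d1 were Hsd17b11 (0.972), Car7 (0.953) and Cnn3 (0.95). Nearest to Akr1c19 were Taf4 (0.931), Tmem41a (0.921) and Wdr45 (0.919), nearest to Enpep Cntrob (0.937), Dynlrb2 (0.902) and Ankrd54 (0.897), and nearest to Golt1a Spata13 (0.947), Tyw1 (0.932) and Lclat1 (0.927).

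Families and partners of the 8 genes were compared between sites with limma, which tests each of the 45037 probe sets and adjusts after Benjamini-Hochberg. Of 98 measured genes in 9 lists, 8 were higher in the pancreatic tumors, 3 were higher in the pituitary tumors and 87 did not pass. Over all genes, 1.61% were higher in the pancreatic and 4.5% in the pituitary tumors, and the median difference was 0.03. The count for the pituitary side was 5 without pancreatic tumor 1, 6 without pancreatic tumor 2 and 10 without pituitary tumor 7. Without pancreatic tumors 2, 3 and 4, 12 of the 13 related or neighboring genes that passed still did, with Pvalb as the exception, and the differences changed by -0.44 (Hnf4a) to 0.48 (Kif12). Relatives of Tmed6 and Golt1a did not pass. Of 9 p24 genes, 0 passed in limma in either direction and 0 had an unadjusted p below 0.05 (median difference -0.06). Tmed5 differed by -1.0 and Tmed7 by -0.06 (adjusted p = 0.388 and 0.928 from limma). Of 16 genes of transport between the endoplasmic reticulum and the Golgi, 0 passed in limma, and 1 had an unadjusted p below 0.05, on the pituitary side (median -0.18). Golt1b, the closest relative of Golt1a, had 8.71 ± 0.94 (SD, n = 9) and 8.95 ± 0.42 (SD, n = 3), with a mean difference of -0.24 (adjusted p = 0.835 from limma).

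The closest relatives of Akr1c19 were high in the pancreatic tumors as well. Akr1c12 had 7.93 to 10.26 in the pancreatic tumors and 5.16, 5.57 and 5.26 in pituitary tumors 6, 7 and 8, with a mean difference of 3.93 (standard error, SE, 0.35, limma adjusted p = 4.2e-05). Akr1c13 had 9.58 to 11.63 and 5.50, 6.47 and 4.59, with a mean difference of 4.74 (SE 0.43, limma adjusted p = 5.1e-05). For both, as for Akr1c19, the sites did not overlap. These 3 reductases may share reading by a probe set, and their copies cannot be told apart fully here. The other 11 of 13 aldo-keto reductases did not pass, with a median of 0.68 over all 13. Akr1c14, a steroid dehydrogenase, was 6.42 to 11.97 and highest in tumor 2 (difference 3.50, adjusted p = 0.0867 from limma).

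For Sult1d1, the enzyme that makes its sulfate donor moved in the same direction. Papss2, which builds activated sulfate (PAPS), had 8.98 to 11.43 in the pancreatic tumors and 7.02, 4.96 and 6.87 in the pituitary tumors. Papss2 was thus higher by 4.27 (SE 0.51, limma adjusted p = 0.000435), and by 2.53 with the mean of all its probe sets (adjusted p = 0.0014). The other synthase, Papss1, differed by -0.82 (adjusted p = 0.0929 from limma). Of 12 measured genes of sulfotransferases and sulfate supply, Papss2 was the 1 that passed, and the median was 0.60. The neighbors and relatives Sult1b1 and Sult1e1 differed by 1.75 and 0.67 (adjusted p = 0.159 and 0.707 from limma).

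Partners of Ambp were mostly low or variable. Of 12 bikunin partners and lipocalins, Rbp4, the plasma carrier of retinol, was higher in the pancreatic tumors (13.56 ± 0.48, SD, n = 9, and 10.31 ± 0.45, SD, n = 3; difference 3.25, SE 0.30, limma adjusted p = 5.8e-05). Apod, a lipocalin of glia and other cells, was higher in the pituitary tumors (difference -4.70, SE 0.50, limma adjusted p = 0.000176, and -2.84 with the mean of all its probe sets). The heavy chains to which bikunin is bound in plasma did not pass. Itih1 differed by 1.92 and Itih4 by 2.36 (adjusted p = 0.335 and 0.518 from limma), and Itih2, 11.45 in tumor 2, was 3.86 to 8.32 in the other pancreatic tumors. The median of this list was -0.31. Of 8 measured carboxypeptidases and partners of Cpn1, 0 passed in limma, and 1 had an unadjusted p below 0.05, on the pituitary side (median -0.18). These include Cpn2, with a mean difference of 1.68 (adjusted p = 0.451 from limma), and Cpe, the carboxypeptidase of hormone granules, with -0.34 (adjusted p = 0.785 from limma).

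EF-hand genes related to Scgn lay mostly on the pituitary side. Of 10, limma found 0 higher in the pancreatic tumors and 2 higher in the pituitary tumors, and the unadjusted p was below 0.05 for 0 and 7. The median was -2.62. Over all genes, 4.5% passed as higher in the pituitary tumors after adjustment, and no share was counted for the unadjusted p. Unadjusted counts in the same order were 6 and 0 for aldo-keto reductases and 5 and 3 for sulfotransferases and sulfate supply. They were 1 and 4 for bikunin partners and lipocalins and 4 and 3 for membrane peptidases. For HNF and FOXA factors they were 3 and 0. Hpcal4 was at least 9.82-fold higher in the pituitary tumors (means 8.83 and 3.46, limma adjusted p = 0.000625), since all 9 pancreatic signals lay below the array medians. Pvalb, a calcium buffer of fast neurons and muscle, differed by -4.30 (adjusted p = 0.0161 from limma). Pvalb was 6.82 to 13.12 in the pituitary tumors, and its difference was -2.79 without pituitary tumor 8 (adjusted p = 0.0422). It did not pass without pituitary tumor 6 (adjusted p = 0.088) or without pancreatic tumors 2, 3 and 4 (adjusted p = 0.0548). Calb1 and Calb2 differed by -3.94 and -2.11 (adjusted p = 0.13 and 0.0846 from limma). Of 9 glial and neuronal markers, limma found 5 higher in the pituitary tumors as well, and 4 did not pass. The part of those cells in the signals of the EF-hand genes was not tested.

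Of 13 membrane peptidases and genes of the renin-angiotensin system around Enpep, Dpp4, which trims incretins and other peptides, was higher in the pancreatic tumors. Dpp4 had 7.37 to 10.37 and 5.51, 4.84 and 4.38, the last 3 below the array medians, and was at least 8.84-fold higher (limma adjusted p = 0.00785). Its adjusted p was 0.0564 without pituitary tumor 8. Anpep, another aminopeptidase, differed by 2.45 (adjusted p = 0.102 from limma), Agt, the angiotensin precursor, by 2.74 (adjusted p = 0.0935) and Ace by -0.24 (adjusted p = 0.636). The median of this list was 0.16.

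Of 5 measured factors that bind the motifs searched above, 3 were higher in the pancreatic tumors. Foxa2 had 9.52 to 10.78 in the pancreatic and 5.34, 5.61 and 6.06 in the pituitary tumors (difference 4.55, SE 0.28, limma adjusted p = 2.14e-06). Foxa3 had 6.41 to 9.76 and 4.13, 3.95 and 3.61, the last 3 below the array medians, and was at least 4.66-fold higher (limma adjusted p = 0.00116). Hnf4a had 8.19 to 12.06 and 7.05, 6.88 and 6.86 (difference 2.69, SE 0.60, limma adjusted p = 0.0254). Hnf4a did not pass when a pituitary tumor was left out (adjusted p = 0.106, 0.0632 and 0.115 without tumor 6, 7 and 8). Foxa1 and Hnf4g differed by 0.43 and 0.33 (adjusted p = 0.794 and 0.284 from limma). HNF1 factors, which bind GTTAAT, were not analysed here.

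**Figure D5:**
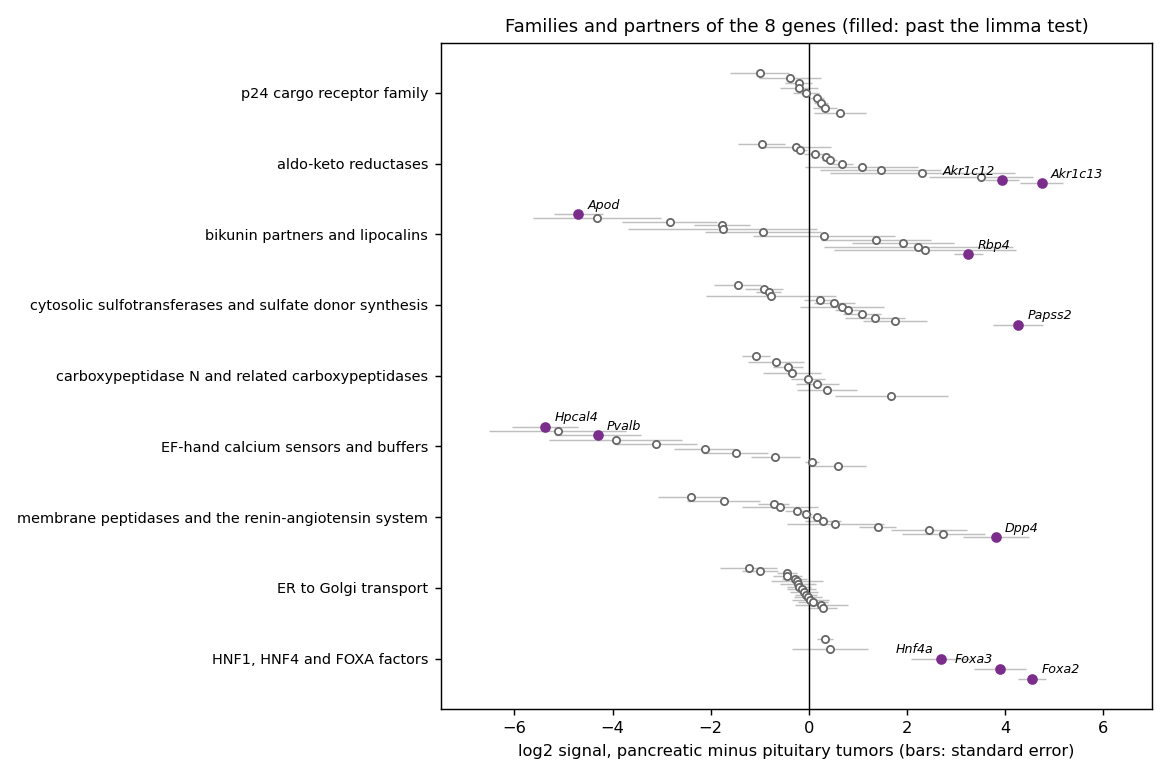
Difference in log2 signal between pancreatic and pituitary tumors (horizontal) for 98 genes in 9 lists of families and partners of the 8 genes (rows), with 1 point per gene and its standard error. Filled points passed the limma test; 8 lie on the pancreatic side, among them Akr1c12, Akr1c13 and Papss2, and 3 on the pituitary side, and the differences of Hpcal4, Dpp4 and Foxa3 are measured against signals below the array medians.

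The genes next to each of the 8 on its chromosome were compared in the same test. Of 32 genes, the 2 nearest measured ones on each side, 3 were higher in the pancreatic tumors, 1 was higher in the pituitary tumors and 28 did not pass, and the median difference was 0.27. Over all genes, the shares were 1.61% and 4.5%. Among the 3, Akr1c13 and Akr1c12 were already counted with the related genes and may share reading by a probe set with Akr1c19. Akr1c13 and Akr1c12 are the nearest measured genes to Akr1c19 on chromosome 13, with starts 42.3 kb before and 34.7 kb after it, whereas Akr1c18 differed by 0.34 (adjusted p = 0.12 from limma). Kif12, a kinesin gene that starts 14.7 kb from Ambp on chromosome 4, had means of 7.40 and 4.18 (limma adjusted p = 0.00612). With all 3 pituitary signals of Kif12 below the array medians, it was at least 3.53-fold higher, and its measured difference of 3.22 was 1.93 with the mean of all its probe sets. Ap1ar, which starts 1460 kb from Enpep, was higher in the pituitary tumors (difference -1.68, adjusted p = 0.00529 from limma). Around Tmed6, Nip7 at 4.61 kb and Terf2 at 7.92 kb differed by 0.16 and -0.69 (adjusted p = 0.785 and 0.255 from limma). The genes compared around Sult1d1, Cpn1, Scgn and Golt1a did not pass. Without pancreatic tumor 2, 5 of the 32 genes were higher in the pancreatic tumors, and without pituitary tumor 8, 2 were higher in the pituitary tumors.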

How the data were processed

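RNA of 9 pancreatic and 3 pituitary tumors was measured on 1 array each. The values deposited by the authors are normalized log2 signals. Both Partek Genomics Suite and RMA appear in the methods, and it is not stated which of them made these values. They were used as deposited. Of 45101 probe sets, 64 controls were left out. Where several probe sets carry the symbol of a gene alone, the one with the highest mean of the 2 site means stands for it.

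The genes and all lists were chosen with earlier results of these data known. The site test was limma 3.58.1 (lmFit, eBayes; R 4.3.3) without a covariate, with Benjamini-Hochberg adjustment over 45037 probe sets and a threshold of 0.05. The code was checked on simulated data. Correlations were tested with exact permutations of pairings, two-sided, adjusted over each family of relations. Nothing says whether tumors came from separate mice, so p-values measure the spread between these tumors, and the number of arrays limits the precision. Named are all 8 genes, up to 4 genes of each list (those that passed first), hormones, HNF and FOXA factors, the 3 most alike genes and neighbors that passed. Alternatives were quantile normalization, median centring, the mean of all probe sets, a filter at the median probe set, array weights, a trended robust variance, rank correlation and each tumor left out. Leaving out pancreatic tumors 2, 3 and 4 was added after the data were seen. Promoters are from RefSeq, where all 8 genes matched by symbol. Exact permutations ran in numpy 2.4.6 under Python 3.11.15, with ranks from scipy 1.17.1, and figures were drawn with matplotlib 3.10.9.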

Additional observations from a re-analysis of the deposited data

Results flagged for a closer look

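Dixon's gap test, which picks out about 1 in 20 groups by chance, was applied to 28 groups of tumors, and in 7 of them 1 tumor stood apart. Pancreatic tumor 2 was lowest by a wide gap for Tmed6 (8.32), Scgn (7.40) and Sst (13.65). It was highest by a wide gap for Akr1c13 (11.63) and Hnf4a (12.06). Pancreatic tumor 5 was highest for Hpcal4 (3.79), a signal below the array medians, and lowest for Ap1ar (7.97).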

How the results depend on the processing

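The difference between sites chose the 8 genes, so that recomputing it shows nothing about its stability. With the mean of all probe sets it was 3.66 in place of 5.88 for Cpn1, a move beyond the spread between tumors. For the 13 related or neighboring genes that passed, 240 differences kept their direction and their side of the threshold and 6 kept their direction and no longer passed. Named genes that did not pass were not followed in this way. The difference moved by over 1.5 times for Papss2, Apod and Kif12 with the mean of all probe sets (2.53, -2.84 and 1.93 in place of 4.27, -4.70 and 3.22) and for Pvalb without pituitary tumor 8 (-2.79 in place of -4.30). No paired analysis was possible because the sites share no tumor numbers. Among 28 pairs of the 8 genes, the count passing was 0 to 1 with a tumor left out. Among the 40 relations with hormones, 2 passed, against 0 with quantile normalization, 1 with the mean of all probe sets, 1 with Spearman's rank correlation, 0 without pancreatic tumors 10, 11 and 12, 0 without the 2 farthest tumors, 0 without pancreatic tumors 2, 3 and 4, and 0 to 3 with a tumor left out. Median centring also gave 2, both of them positive. Of 16 settings, Scgn and Sst passed in 10, and Ambp and Iapp in 3, which left out tumor 1, 3 or 9. Related genes higher in the pituitary tumors were 3, against 7 with the mean of all probe sets, 13 with array weights and 2 to 10 with a tumor left out. Those higher in the pancreatic tumors were 8, against 13 with array weights and 6 to 9 with a tumor left out. All 8 kept their call in each setting that left out no single tumor. Neighboring genes higher in the pancreatic tumors were 3, against 5 with array weights, 5 without pancreatic tumors 2, 3 and 4 and 3 to 5 with a tumor left out. Those higher in the pituitary tumors were 1, against 2 with array weights, 2 without pancreatic tumors 2, 3 and 4 and 1 to 2 with a tumor left out. The causes of these changes were not tested. The setting without pancreatic tumors 2, 3 and 4 was chosen after the data were seen. For Tmed6, Akr1c19, Sult1d1, Cpn1, Golt1a, Dpp4, Foxa3 and Kif12, the pituitary signal at background limits the fold to a bound.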
